A study of Mus musculus with 2 samples.

Results

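Genes of iron and heme handling were examined in the epididymal fat of male mice that lack Iah1, an esterase gene, and of wild-type mice. The genes were chosen by name, as the probe sets whose gene symbol in the platform annotation is Cd163, Hmox1, Slc40a1, Slc11a1, Tfrc, Fth1, Trf, Hpx, Hp or Steap4. All 10 genes were found, each with 1 probe set, among 22206 probe sets in all. KO_A12 mice carry a frameshift deletion made with CRISPR/Cas9 in the first exon of Iah1 and were bred as a homozygous line. WT_A12 mice are of the A/J-12SM strain, which the knockout also carries, an A/J background with the SM/J chromosome 12, and they were not described as littermates. All mice ate a high-fat diet for 12 weeks, until 18 weeks of age, and had no food for 4 h before sampling. RNA of 3 mice per genotype was pooled and read on 1 Clariom S array for mouse, which measures each gene by a set of short oligonucleotides. A single array per genotype leaves every difference without replicates, so that neither an error nor a p-value can be given.

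Iron is carried in plasma by transferrin, enters cells through the transferrin receptor, is stored inside ferritin and leaves cells through ferroportin. When red cells break down, haptoglobin binds free hemoglobin and hemopexin binds free heme, and macrophages take up these complexes, open the heme ring with heme oxygenase and return the iron to plasma. Macrophages of adipose tissue do part of this work for fat, and adipocytes themselves make haptoglobin. Ferritin, ferroportin and the transferrin receptor are also controlled through iron-responsive elements in their mRNA, partly at translation, which an array does not read.

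Signals are on the log2 scale, so that a difference of 1 is a 2-fold difference, and each difference is KO_A12 minus WT_A12. A probe set was called higher when its difference exceeded 1 and its KO_A12 signal exceeded 7, and lower when its difference was under -1 and its WT_A12 signal exceeded 7. These are the cutoffs of the study. The study measured a selection of the genes they called again by real-time PCR in epididymal fat. There Sfrp4 was significantly lower in KO_A12 mice and Metrnl tended to be slightly lower, while the changes of the others were not reproduced. The 10 genes examined here were not in that selection. Median signals were 6.51 on the KO_A12 array and 6.50 on the WT_A12 array, and the central 95% of all differences lay between -0.84 and 0.86. The median of the 23 background control probe sets was 5.61 on the KO_A12 array and 5.75 on the WT_A12 array. The targeted gene, Iah1, had a signal of 8.35 in the KO_A12 pool and 9.52 in the WT_A12 pool, a difference of -1.17. The study itself detected neither Iah1 mRNA by real-time PCR nor its protein by western blot in KO_A12 mice. Where the oligonucleotides of Iah1 lie relative to the deletion was not examined. White adipocyte markers were strong in both pools, with signals of 18.31 in the KO_A12 pool and 18.22 in the WT_A12 pool for Adipoq, the gene of adiponectin. Genes of other organs differed between the pools, and their values are given beside the genes they touch.

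Of the 10 genes, Hpx was called higher and Slc11a1 was called lower in the KO_A12 pool. Over all probe sets, 0.567% were called higher and 0.757% lower. The other 8 genes were not called, and 4 of the 10 differed by less than 0.25. Taken by sign alone, 6 genes had a higher and 4 a lower signal in the KO_A12 pool, with a median difference of 0.21, against 11109 higher and 11065 lower among all 22206 probe sets and a median of 0.00029. The difference lay outside the central 95% of the probe sets of like signal for 4 genes, Hpx, Hp and Trf on the high side and Slc11a1 on the low side.

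**Figure D1:**
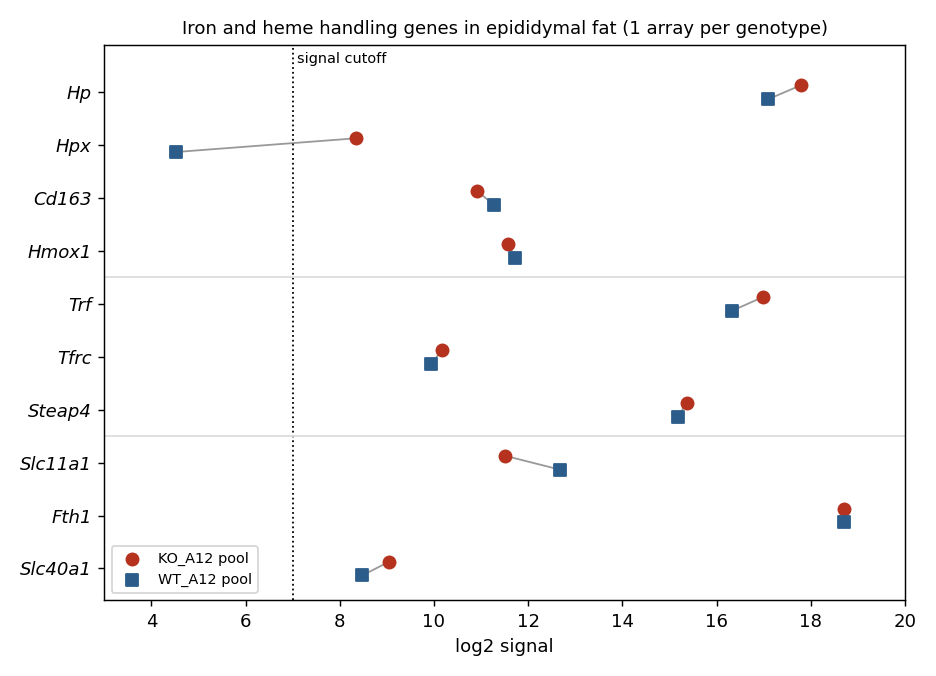
Log2 signal of each iron and heme handling gene (horizontal axis) in the KO_A12 pool (red circles) and the WT_A12 pool (blue squares), 1 array each, so that no error bars can be drawn. The dotted line is the signal cutoff of 7, and grey rules part heme and hemoglobin clearance, iron transport and uptake, and iron recycling, storage and export. Hpx, at 8.34 in the KO_A12 pool and 4.51 in the WT_A12 pool, is the one gene that crosses the cutoff, and Slc11a1 has the widest gap in the other direction.

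The carriers of hemoglobin and heme had higher signals in the KO_A12 pool. Hpx encodes hemopexin, the plasma protein with the tightest grip on heme, which the liver makes. Its log2 signal was 8.34 in the KO_A12 pool and 4.51 in the WT_A12 pool, a difference of 3.83 or 14.2-fold. The WT_A12 signal lay below the median of the background controls, so the fold is uncertain. Taken against that median, the KO_A12 signal was higher by 2.59 on the log2 scale, or 6.01-fold. With all signals raised to at least that median on both arrays, 0.158% of all probe sets had a higher difference than Hpx. When a signal over 7 was required on both arrays, a rule that called 0.216% of all probe sets higher, Hpx was not called.

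Hp encodes haptoglobin, the hemoglobin carrier, which both liver and fat cells express. Its log2 signal was 17.79 in the KO_A12 pool and 17.10 in the WT_A12 pool, a difference of 0.69 or 1.61-fold. This is below the cutoff of 1, but among the 223 probe sets with a mean signal of 16 or more the central 95% of differences ran from -0.39 to 0.34. At a cutoff of 1.5-fold in place of 2-fold, 3 of the 10 genes were called higher, namely Hpx, Hp and Trf, against 2.19% of all probe sets.

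Genes of other organs also had higher signals in the KO_A12 pool. All 22 hepatocyte markers had a higher signal in the KO_A12 pool, and 13 of them were called higher, but the signals of many were weak. The median difference was 2.15 as deposited and 1.62 with signals raised to at least the background median of 5.75. Alb, the gene of serum albumin, had a log2 signal of 15.99 in the KO_A12 pool and 8.22 in the WT_A12 pool. The linear signals of the 22 markers summed to 107322 in the KO_A12 pool and 24373 in the WT_A12 pool. Such sums rest on the few strongest signals. In the KO_A12 pool the strongest was Alb. In the WT_A12 pool the strongest were Rbp4 at 14.09 and Cyp2e1 at 12.55, which differed by 0.41 and 0.21. Of the 22 markers, 3 lay under the median of the background controls in the KO_A12 pool and 18 in the WT_A12 pool. One of the 18 was Apoa1, the main apolipoprotein of HDL, with a log2 signal of 8.66 in the KO_A12 pool and 4.47 in the WT_A12 pool. The part of liver RNA in the differences of Hpx, Hp and Trf was not tested. Genes of the seminal vesicle, which lies beside the epididymal fat, were higher as well, with 9 of 9 called. All 9 were under the background controls in the WT_A12 pool, so that the median difference of 5.36 has no firm size, and it was 3.42 against the raised signals. Svs5, a seminal vesicle secretory protein, had 12.25 in the KO_A12 pool and 4.25 in the WT_A12 pool. White adipocyte markers, by contrast, ran from -0.53 to 0.34, with 7 of 13 higher and a median of 0.02.

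Hpx and Hp are also acute phase genes, whose expression in liver rises in inflammation. Of 14 other measured acute phase genes 11 had a higher signal in the KO_A12 pool, with a median difference of 0.52. With signals raised to at least the background median, 7 were higher, 2 lower and 5 at the floor on both arrays, and the median was 0.04. The 2 that were called higher, Fgg and Fgb, encode chains of fibrinogen and are hepatocyte markers as well. Fgg had log2 signals of 8.20 in the KO_A12 pool and 3.38 in the WT_A12 pool, and Fgb had 7.60 in the KO_A12 pool and 5.40 in the WT_A12 pool. Both were under the background controls in the WT_A12 pool, and against the background median they were higher by 2.44 and 1.85. Orm2, an orosomucoid, had log2 signals of 10.25 in the KO_A12 pool and 10.88 in the WT_A12 pool. Saa3, the serum amyloid A of macrophages and fat, differed by 0.60. Neither passed the cutoffs, so that of the 14 other acute phase genes only the fibrinogen chains were called.

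The promoter of Hpx is shown because it is the one gene called higher. The bases are the 250 before its RefSeq transcript start, on the minus strand of chr7:105600117-105600366 (GRCm38.p6).
Hpx: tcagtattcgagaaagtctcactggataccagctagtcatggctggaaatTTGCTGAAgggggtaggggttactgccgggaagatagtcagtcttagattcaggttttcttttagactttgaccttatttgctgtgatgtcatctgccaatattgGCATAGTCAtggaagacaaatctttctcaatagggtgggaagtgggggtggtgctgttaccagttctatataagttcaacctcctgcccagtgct
Capitals mark matches, on either strand, to 2 short motifs. The C/EBP motif TTGCNNAA, of factors that switch on liver acute phase genes, was matched by TTGCTGAA at -200 to -193 from the start. The antioxidant response element TGACNNNGC, bound by Nrf2, was matched on the opposite strand, reading GCATAGTCA here, at -95 to -87. In 32851 promoter windows of this length, 9.56% held the C/EBP motif and 10.2% the antioxidant response element. The matches do not overlap and describe the letters only. The C/EBP motif also matched in the windows of Steap4 and Fth1, which were not called. RefSeq's sequence is that of C57BL/6J, and the mice studied have an A/J background.

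The macrophage side of heme clearance showed smaller and opposite differences. Cd163, the scavenger receptor by which macrophages take up haptoglobin bound to hemoglobin, had a log2 signal of 10.92 in the KO_A12 pool and 11.27 in the WT_A12 pool, a difference of -0.35. Hmox1, the inducible heme oxygenase that breaks heme into biliverdin, carbon monoxide and iron, had 11.57 in the KO_A12 pool and 11.73 in the WT_A12 pool, a difference of -0.16. Both lay inside the central 95% of the 3607 probe sets with a mean signal from 10 to 13, which ran from -0.81 to 0.58. So in these pools the carrier Hp had a higher signal while the signal of its receptor was slightly lower, by an amount that many probe sets of like signal also showed.

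Of 12 other genes of heme clearance, 9 were lower in the KO_A12 pool, with a median difference of -0.17, and 0 were called. With signals raised to the background median, 8 were lower and the median was -0.08. Among all probe sets, lower signals were the more common ones only at middle mean signals, where 42.4% were higher from 7 to 10 and 44.1% from 10 to 13. At mean signals under 7, 54.9% were higher, and from 13 to 16, 50.1%. The listed genes fall in several of these bands. The largest difference among the stronger signals was that of Blvrb, a biliverdin reductase, with log2 signals of 9.56 in the KO_A12 pool and 10.17 in the WT_A12 pool. Lrp1, the receptor for hemopexin bound to heme, had 14.61 in the KO_A12 pool and 15.13 in the WT_A12 pool, a difference of -0.52. Slc48a1, which carries heme out of lysosomes, differed by -0.26. Abcg2, an exporter that can carry porphyrins, differed by 0.29. Hmox2, the constitutive heme oxygenase, had 12.27 in the KO_A12 pool and 12.38 in the WT_A12 pool.

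Slc11a1 was the one gene called lower. It encodes NRAMP1, which pumps iron and manganese out of the phagosomes of macrophages. Its log2 signal was 11.51 in the KO_A12 pool and 12.67 in the WT_A12 pool, a difference of -1.16, so that the linear signal was 2.23-fold lower. Of all probe sets 0.743% had a lower difference, and Slc11a1 lay below the central 95% of the probe sets of like signal, whose lower bound was -0.81. At a cutoff of 3-fold in place of 2-fold, which called 0.0766% of all probe sets lower, Slc11a1 was not called.

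Macrophage markers moved in the same direction as Slc11a1. In all 15 measured pan-macrophage markers the signal was lower in the KO_A12 pool. Their median difference was -0.67, with a range from -1.55 to -0.22. Slc11a1, at -1.16, lay within that range but below the median, toward the lower end. The 4 called lower were Itgb2, the beta chain of leukocyte integrins, at -1.55, the adaptor Tyrobp at -1.22, the lipopolysaccharide receptor Cd14 at -1.13 and Fcer1g, the gamma chain of Fc receptors, at -1.02. The linear signals of the list summed to 145511 in the KO_A12 pool and 230616 in the WT_A12 pool, and 0 of its markers were under the background controls in either pool. Of 12 lipid-associated macrophage markers 10 were lower, with a median of -0.87, and 5 were called. These were Gpnmb at -1.60, the proton pump subunit Atp6v0d2 at -1.32, the lipid receptor Trem2 at -1.27, the galectin Lgals3 at -1.12 and the lysosomal lipase Lipa at -1.02. Whether Slc11a1 follows the macrophage content was not tested. In bulk tissue, fewer cells of a type and less RNA per cell cannot be told apart.

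Cd163 is itself a gene of resident macrophages, whose other markers were examined beside it. Of 15 such markers 10 were lower in the KO_A12 pool, with a median of -0.12 and a range from -0.86 to 1.13, against a median of -0.67 for the pan-macrophage list. Folr2, a folate receptor, differed by -0.86 and Fcna, a ficolin, by -0.77, while Gas6, a ligand of the TAM receptors, differed by 0.50. The chemokine gene Ccl8 was called higher, with log2 signals of 10.61 in the KO_A12 pool and 9.48 in the WT_A12 pool. The difference between Cd163 and Slc11a1, like that between the lists, was not tested.

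**Figure D2:**
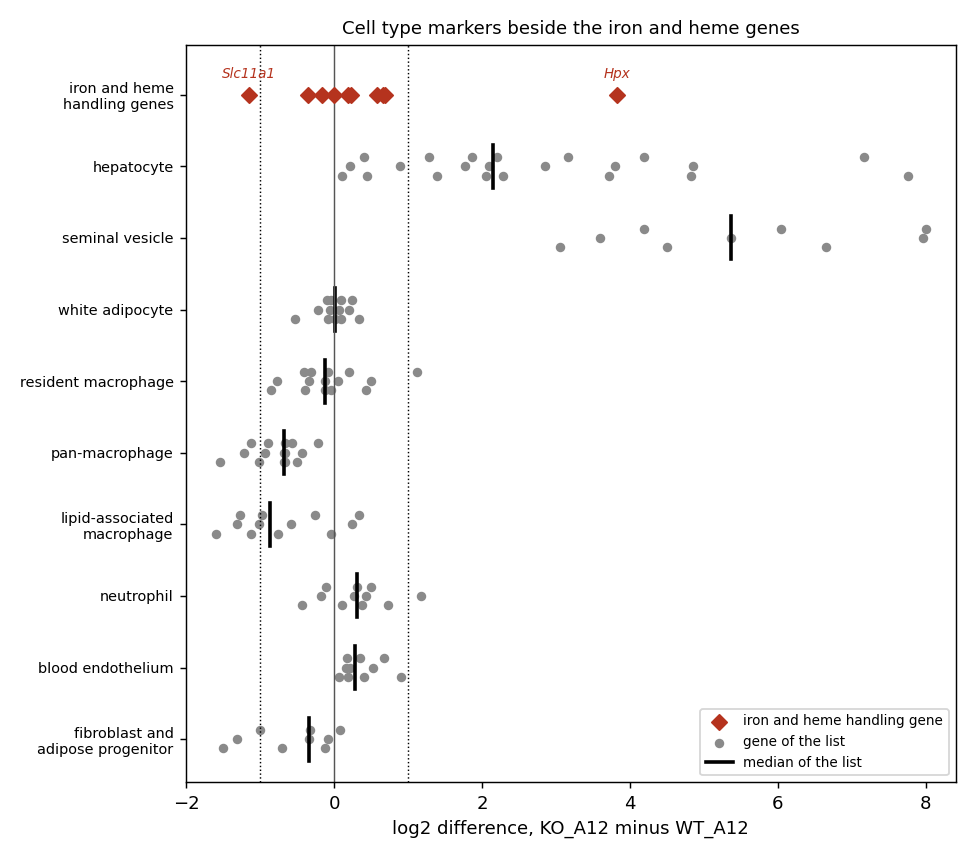
Log2 difference, KO_A12 minus WT_A12 (horizontal axis), of the 10 iron and heme handling genes (red diamonds, top row) and of the genes of 9 cell type marker lists (grey points, with the median of each list as a black bar), 1 array per genotype. Dotted lines mark -1 and 1. Hepatocyte and seminal vesicle genes lie at or to the right of 0, but 18 of the 22 and 9 of the 9 were under the background controls in the WT_A12 pool, so that their distances have no firm size. Pan-macrophage genes lie to the left, with a median of -0.67, and white adipocyte genes gather at 0.

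The promoters of Slc11a1 and Cd163 are shown side by side because both are macrophage genes and only Slc11a1 was called. Each is the 250 bases before a RefSeq transcript start on the plus strand, at chr1:74374953-74375202 and chr6:124304401-124304650 (GRCm38.p6).
Slc11a1: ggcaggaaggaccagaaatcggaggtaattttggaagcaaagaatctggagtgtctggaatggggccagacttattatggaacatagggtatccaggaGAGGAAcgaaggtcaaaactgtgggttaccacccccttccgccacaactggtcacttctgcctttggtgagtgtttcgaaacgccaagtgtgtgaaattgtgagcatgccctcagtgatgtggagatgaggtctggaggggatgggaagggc
Cd163: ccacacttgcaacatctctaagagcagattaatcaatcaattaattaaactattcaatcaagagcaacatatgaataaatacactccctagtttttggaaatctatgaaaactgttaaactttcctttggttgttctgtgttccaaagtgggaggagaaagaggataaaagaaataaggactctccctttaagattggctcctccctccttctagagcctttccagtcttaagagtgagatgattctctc
Capitals mark GAGGAA, a core motif of PU.1, a transcription factor of myeloid cells, which was found at -152 to -147 in Slc11a1. Of all 32851 windows 23.3% held this motif on either strand. The window of Cd163 held 0 matches to any of the 3 motifs, which says only that these letters are not in this window.

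The 3 genes that carry iron or bring it into cells had higher signals in the KO_A12 pool, and 0 of them were called. Trf encodes transferrin, the carrier of iron in plasma, where the protein comes mostly from liver. Its log2 signal was 16.99 in the KO_A12 pool and 16.33 in the WT_A12 pool, a difference of 0.66 or 1.58-fold. Alb had a signal of 8.22 in the same WT_A12 pool. How much of either Trf signal is liver RNA was not tested. Like Hp, Trf was not called but lay above the central 95% of the 223 probe sets of like signal. Tfrc, the receptor that takes up transferrin, had 10.17 in the KO_A12 pool and 9.94 in the WT_A12 pool, a difference of 0.23. Steap4, a metalloreductase of adipocytes that reduces iron and copper, had 15.36 in the KO_A12 pool and 15.18 in the WT_A12 pool, a difference of 0.18. Both of these lay inside the central 95% of the probe sets of like signal.

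Of 14 other genes of iron uptake and reduction 9 had a higher signal in the KO_A12 pool, with a median difference of 0.36, and 0 were called. The median was 0.10 over the 7 genes with a signal over 7, and 0.05 with signals raised to the background median. Slc39a8, a metal importer of the ZIP family, had the largest difference among the stronger signals, with 11.10 in the KO_A12 pool and 10.33 in the WT_A12 pool. Slc39a14, an importer of the same family that takes up iron not bound to transferrin, differed by 0.38. Those with lower signals included Steap3, the reductase that works on iron released from transferrin in endosomes, at -0.53 and Slc11a2, which carries that iron into the cytosol, at -0.44. Slc11a2 is the paralog of Slc11a1, and its signals were 8.06 in the KO_A12 pool and 8.49 in the WT_A12 pool.

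**Figure D3:**
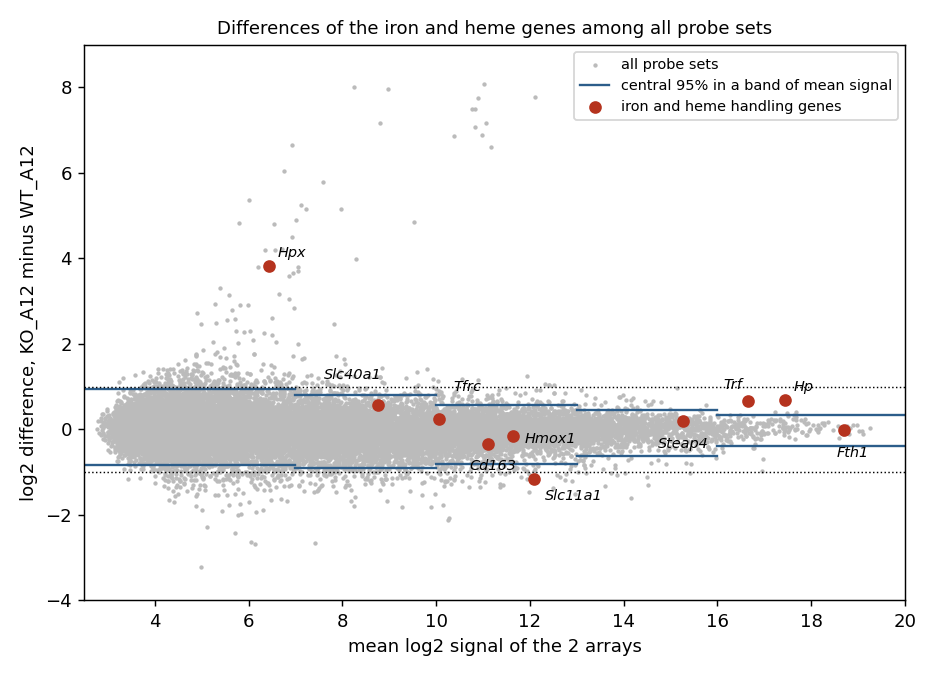
Log2 difference, KO_A12 minus WT_A12 (vertical axis), against the mean log2 signal of both arrays (horizontal axis) for all 22206 probe sets (grey) and the 10 iron and heme handling genes (red). Blue lines bound the central 95% of the probe sets in each band of mean signal, and dotted lines mark -1 and 1. The spread narrows with signal, so that Hp at 0.69 and Trf at 0.66 lie above the blue line at the right, while Slc40a1 at 0.58 lies inside its band.

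Fth1 and Slc40a1, the genes of storage and export among the 10, were not called. Fth1 encodes the heavy chain of ferritin, which oxidizes iron for storage, and had a log2 signal of 18.70 in the KO_A12 pool and 18.70 in the WT_A12 pool, a difference of -0.0054 whose sign turned under quantile normalization. This signal is close to the top of the scale, as the highest of all probe sets was 19.26 on the KO_A12 array and 19.23 on the WT_A12 array. Slc40a1 encodes ferroportin, the exporter of iron, and had 9.05 in the KO_A12 pool and 8.48 in the WT_A12 pool, a difference of 0.58 or 1.49-fold. It was not called and lay inside the central 95% of the 5065 probe sets with a mean signal from 7 to 10, which ran from -0.90 to 0.80. Of the genes that macrophages use to recycle iron, Slc11a1 was thus lower in the KO_A12 pool and Slc40a1 somewhat higher, without being called.

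Among 8 other genes of storage, recycling and export, 4 had a higher and 4 a lower signal in the KO_A12 pool, with a median difference of 0.09, or 0.19 over the 6 genes with a signal over 7, and 0 were called. Ceruloplasmin and hephaestin are the ferroxidases that work beside ferroportin. Cp, the gene of ceruloplasmin, had log2 signals of 13.80 in the KO_A12 pool and 13.24 in the WT_A12 pool, and Heph, that of hephaestin, had 12.04 in the KO_A12 pool and 11.62 in the WT_A12 pool. Ftl1, the light chain of ferritin, differed by -0.11, close to Fth1. Ncoa4, the receptor that delivers ferritin to lysosomes, differed by 0.21, and Pcbp1, a chaperone that loads iron into ferritin, by 0.18.

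Of 13 genes that set iron levels, 10 had a higher signal in the KO_A12 pool, with a median of 0.23, and 0 were called. The median was 0.08 with signals raised to the background median. Hamp encodes hepcidin, the liver hormone that makes ferroportin degrade, and had log2 signals of 7.51 in the KO_A12 pool and 6.89 in the WT_A12 pool. Its copy Hamp2 had 7.95 in the KO_A12 pool and 7.34 in the WT_A12 pool. These genes are near-identical in sequence and may share signal. The iron regulatory proteins, which bind iron-responsive elements, had differences of 0.02 for Aco1 and 0.08 for Ireb2, and the hypoxia factor Epas1 had 0.25.

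Enzymes of heme synthesis and of iron-sulfur clusters were likewise not called. Of 8 heme synthesis genes 7 had a higher signal in the KO_A12 pool, with a median difference of 0.17. Alas2, the erythroid form of the starting enzyme, had log2 signals of 9.30 in the KO_A12 pool and 8.72 in the WT_A12 pool, Fech, which inserts iron into the ring, had 11.36 in the KO_A12 pool and 11.01 in the WT_A12 pool, and Urod differed by -0.32. Of 11 iron-sulfur cluster genes 6 were higher, with a median of 0.09, or 0 with signals raised to the background median. Hspa9, a mitochondrial chaperone, differed by 0.55, the ferredoxin Fdx1 by 0.53 and Nfu1, a cluster carrier, by -0.42.

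The 6 lists of iron and heme genes hold 66 genes beside the 10. Of the 66, 39 had a higher and 27 a lower signal in the KO_A12 pool, and the median difference was 0.09. In either direction 0 were called, against 0.567% of all probe sets called higher and 0.757% lower. At such shares, 0 calls among 66 genes say little. A difference of more than 1 was seen for 2 of the 66, against 624 of all 22206 probe sets. Both of the 2 had signals under 7 on both arrays. With signals raised to the background median, 34 were higher, 21 lower and 11 at the floor on both arrays, and the median was 0.02. The 2 were Tfr2, the second transferrin receptor, with 6.01 in the KO_A12 pool and 4.93 in the WT_A12 pool, and Tmprss6, a protease that restrains hepcidin, with 4.20 in the KO_A12 pool and 5.22 in the WT_A12 pool, and they were named after their values were seen. Tfr2 lay under the background controls in the WT_A12 pool and Tmprss6 in both pools.

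**Figure D4:**
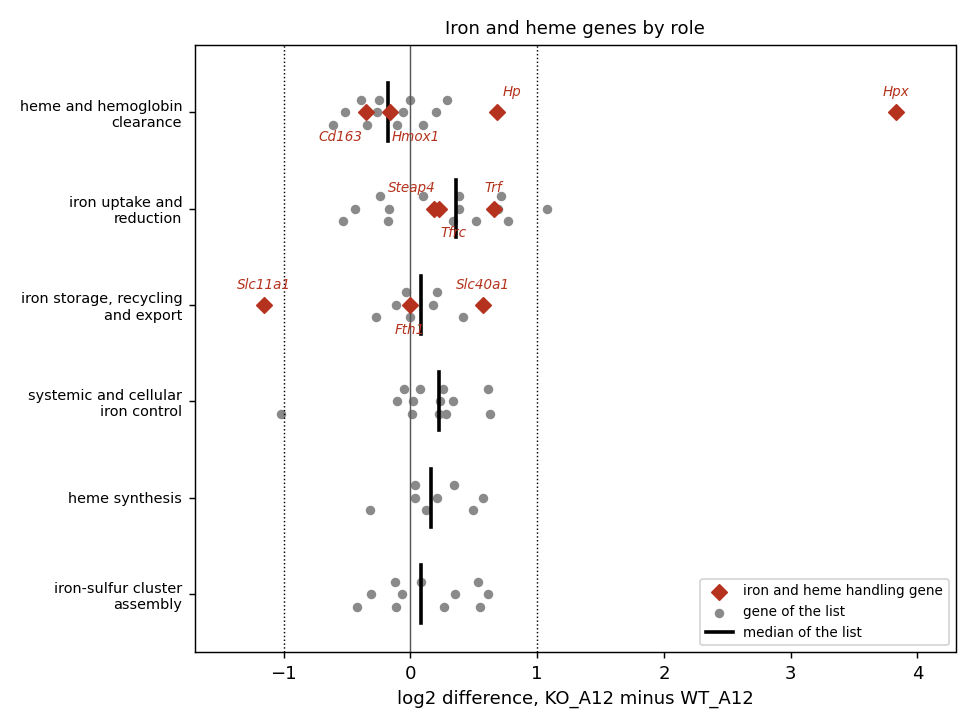
Log2 difference, KO_A12 minus WT_A12 (horizontal axis), of the genes of 6 iron and heme lists (grey points, with the median of each list as a black bar) and of the 10 iron and heme handling genes (red diamonds, placed in the row of their role and not counted in its median), 1 array per genotype. Dotted lines mark -1 and 1. Hpx and Slc11a1 lie outside the dotted lines, and so do Tfr2 at 1.08 and Tmprss6 at -1.02, whose signals were under the cutoff of 7.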

How the data were processed

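Total RNA of epididymal fat was pooled from 3 mice per genotype, and 100 ng was labelled for each array. The deposited log2 signals were made by the authors with GeneChip Console Software 1.3.0 and its SST-RMA procedure (spelled STT-RMA by the study, and given as RMA in the submitters' processing notes). The genome build behind the signals is not given in the sources used here. Background correction and scaling between the arrays can shrink differences of weak and of very strong signals, and their effect cannot be undone here.

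Of 28846 rows 6640 controls were left out. The platform annotation gives 1 symbol to 19572 of the 22206 probe sets, several to 0 and none to 2634. Differences, counts and medians were computed with Python 3.11.15, numpy 2.4.6 and pandas 2.3.3, lowess with statsmodels 0.14.6 and figures with matplotlib 3.10.9, and the code was tested on simulated data. For genes with more than 1 probe set, lists used the one of highest mean signal. The 10 genes were left out of the lists, some lists share genes, and a gene without a symbol on the array was not analysed here. Of most lists, genes were named from the 4 with the largest absolute difference and a signal over 7 on at least 1 array, though not always all 4. The called genes were named too (by examples for hepatocyte and seminal vesicle markers). A few others (such as Hmox2, Slc11a2, Ftl1, Aco1, Ireb2 and the marker genes Alb, Apoa1 and Adipoq) were named for their role, and Rbp4 and Cyp2e1 for their strong signals. The genes and lists were chosen with earlier results of these data known. The alternatives were median centring, quantile normalization, removal of a lowess trend (span 0.3), other cutoffs of signal (8, both arrays, none) and fold (1.5 and 3), other probe sets, genes with a signal over 7 only, the mean, and, added after seeing the data, a floor at the higher median of the background controls. RefSeq promoter sequences (GRCm38.p6) were found for 6 of the 10 genes, and the motifs were chosen after the values were known. Arrays have no depth, and their number limits the precision.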

Additional observations from a re-analysis of the deposited data

How the results depend on the processing

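No paired analysis was possible because the genotypes have a single array each. Gene values counted as kept if they shifted under 1 robust standard deviation of the differences of the 500 probe sets with the most similar mean signal, list medians if they shifted under that of their genes over the square root of their number, and counts if they were within 1.5 times. Of 192 alternative values 168 were kept, but some of these could not move. Each of the 10 genes has 1 probe set, so averaging over probe sets returns the same value. A floor leaves signals above it unchanged. All 30 values of the 10 genes under the 3 scalings were kept, with a move of at most 0.09, and 1 gene, Fth1, changed sign. Among the 10 genes, 0 were called higher if both arrays had to exceed a signal of 7 and 3 at 1.5-fold, and 0 were called lower at 3-fold. With genes over a signal of 7 only, list medians were 0.10 for iron uptake, 0.19 for iron storage and 3.16 for hepatocyte markers. They were -0.27 for red blood cell genes, from 2 genes, against 0.46 for all 6. For the neutrophil list, where Csf3r alone was left, the median was -0.44 against 0.31. This filter asked for a signal over 7 on either array. Of the 22 hepatocyte markers, 18 were under the background controls in the WT_A12 pool. Most hepatocyte markers that passed did so through their KO_A12 signal alone, so the filter itself raises that median. With signals under the background controls raised to the higher of their medians, an alternative chosen after seeing the data, the difference of Hpx was 2.59, and the medians were -0.080 for heme clearance, 0.051 for iron uptake, 0.080 for iron control, 0 for red blood cell genes and neutrophil markers, 0.038 for acute phase genes, 1.62 for hepatocyte and 3.42 for seminal vesicle markers. The means were 0.12 for iron control, 0.041 for the Nrf2 list and 0.79 for acute phase genes. Among markers they were -0.79 for pan-macrophage, 2.69 for hepatocyte, 0.37 for endothelium and -0.59 for fibroblasts. The cutoffs and filters admit other genes by construction. With 1 array per genotype, a difference between pools cannot be told apart from one between mice or arrays, and signals under the background controls carry no size.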

Other observations

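Hmox1 is a target of Nrf2, the factor of the antioxidant response, and a list of other Nrf2 genes was examined beside it. Besides targets the list holds Nfe2l2, the gene of Nrf2 itself, at -0.32 and Keap1, the inhibitor of Nrf2, at 0.04. Of 12 genes of this list 9 had a higher signal in the KO_A12 pool, with a median difference of 0.14, and 0 were called in either direction. Gsr, the glutathione reductase, had log2 signals of 12.07 in the KO_A12 pool and 11.62 in the WT_A12 pool, and Gclc, the catalytic subunit that makes the precursor of glutathione, had 9.66 in the KO_A12 pool and 9.22 in the WT_A12 pool. Srxn1, sulfiredoxin, differed by -0.69 and Osgin1 by -0.46, so that the list did not move one way. 

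Red blood cell genes bear on heme from blood left in the tissue, and 6 of the 15 listed genes were measured here. The globin genes were not analysed here. The 6 had a median difference of 0.46, which was 0 with signals raised to the background median. Slc4a1, the anion exchanger of red cells, had log2 signals of 7.96 in the KO_A12 pool and 7.74 in the WT_A12 pool, and Car2, a carbonic anhydrase, differed by -0.76, while the other 4 were under 7 on both arrays. Neutrophils store haptoglobin and lactoferrin in granules. Of 11 neutrophil markers 8 had a higher signal in the KO_A12 pool (median 0.31, or 0 with signals raised to the background median), but 7 in the KO_A12 pool and 9 in the WT_A12 pool were under the background controls, and Csf3r was the only one over 7. Blood endothelium markers were higher for 10 of 10 genes (median 0.28), with 0.91 for Cldn5, a tight junction protein. Of 9 fibroblast and adipose progenitor markers 8 were lower (median -0.35) and 3 were called, Mfap5 at -1.51, Lum at -1.31 and Pi16 with signals of 6.04 in the KO_A12 pool and 7.05 in the WT_A12 pool.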
